A study of Mus musculus with 4 samples.

Results

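The members were the ATAC-seq peaks of mouse primary myoblasts that lay at CpG-island-type promoters serving 1 direction of transcription. A peak was taken as a member when its centre lay between 1000 bp upstream and 100 bp downstream of a protein-coding transcription start, when the 500 bp around the centre had a GC content of at least 55% and a CpG observed/expected ratio of at least 0.6, and when no protein-coding start of the opposite strand lay within 1000 bp of that start. The WT list held 3919 such peaks of 25775 (15.2%, 95% interval 14.8 to 15.6%), at 3788 genes. The Tet2 KO list held 1013 of 3836 (26.4%, interval 25.0 to 27.8%), at 982 genes. Intervals here are Wilson intervals and cover only the error of counting.

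ATAC-seq maps accessible chromatin with the transposase Tn5, which inserts sequencing adapters into open DNA, and the study used it to ask how chromatin accessibility changes in myoblasts without Tet2. WT mice and constitutive Tet2 KO mice, in which exon 3 of Tet2 was deleted in all tissues, were of the C57BL/6 strain. Unless the methods say otherwise, the mice were males of 8 to 10 weeks. Satellite cells, the stem cells of skeletal muscle, were sorted from hindlimb muscle and cultured for 3 days, and libraries were made from 5000 cells. There were 2 samples per genotype, but 1 peak list per genotype was analysed. The name on each list is that of 1 library which the sample labels do not hold, so its genotype rests on the name under which it was deposited and its replicate is not known. No difference between the genotypes was tested, since 1 library a genotype gives no spread and peaks are not replicates. Myod1, which marks myoblasts, had 1 promoter peak in each list. The promoters of Ptprc, Itgam, Pecam1 and Ly6a, which encode the surface markers CD45, CD11b, CD31 and Sca1 that the sort removed, had 0 peaks in either list. Cd34 and Itga7, which encode the markers the sort kept, also had 0 promoter peaks in either list.

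A CpG island is a stretch of DNA that has kept its CpG dinucleotides, which elsewhere in the mammalian genome are mostly methylated and lost over time. CpG island promoters are usually free of DNA methylation in every cell type, and many of them drive genes that all cells use, while others drive developmental regulators and are held by Polycomb proteins where they are silent. Tet2 is a dioxygenase that oxidises 5-methylcytosine, the first step of active DNA demethylation. Factors such as SP/KLF proteins, ETS proteins, NRF1, BANP, CREB and NFY bind short motifs in these promoters, and NFY binds the CCAAT box.

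A set of 9 promoters is printed below as read from the mm9 genome, 5' to 3' along the gene, each from the 150 bp before the transcription start, so that the CpG content and the motifs can be seen beside the values. Bases in annotated exons were left out, so that Tmem30a ends at position -78 and Pcca at -8 relative to the start, and the others at -1. The first 3 hold at least 2 CCAAT boxes, and their peaks were in both lists. They are Dnajc3, an endoplasmic reticulum co-chaperone (chr14:119337004-119337153, plus strand), Paip2b, a repressor of translation that acts on poly(A)-binding protein (chr6:83781736-83781885, minus strand), and Sel1l, the adaptor of the Hrd1 ubiquitin ligase (chr12:93087598-93087747, minus strand). Capitals mark CCAAT, read as ATTGG on the other strand, and in Dnajc3 also CCACG.

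Dnajc3: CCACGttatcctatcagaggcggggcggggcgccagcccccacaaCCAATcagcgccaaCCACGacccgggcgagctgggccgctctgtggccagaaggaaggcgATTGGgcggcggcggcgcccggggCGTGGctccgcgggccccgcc
Paip2b: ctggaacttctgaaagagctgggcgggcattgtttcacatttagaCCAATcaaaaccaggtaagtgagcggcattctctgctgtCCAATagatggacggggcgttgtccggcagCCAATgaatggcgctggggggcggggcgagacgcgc
Sel1l: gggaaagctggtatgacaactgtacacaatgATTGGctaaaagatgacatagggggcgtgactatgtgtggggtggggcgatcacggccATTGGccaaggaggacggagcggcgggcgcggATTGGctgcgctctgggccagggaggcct

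The WT peak at Dnajc3 had 37 fragments at its summit and the Tet2 KO peak 28. At Paip2b there were 27 in WT and 22 in Tet2 KO. At Sel1l the counts were 51 and 24.

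The next 4 hold a motif typical of CpG island promoters, and each had the highest Tet2 KO fold enrichment among the shared members considered for printing that had its motif within 150 bp upstream of the start. They are Tmem30a, a subunit of phospholipid flippases, with the NRF1 motif CGCATGCG (chr9:79641315-79641387, minus strand), Smndc1, a splicing factor, with the BANP motif CTCGCGAG (chr19:53465064-53465213, minus strand), Cdv3 with the ETS motif CCGGAAG (chr9:103268111-103268260, minus strand), and Clcn4-2, a chloride/proton exchanger, with the cAMP response element TGACGTCA (chr7:7252223-7252372, minus strand). In each sequence capitals mark only the motif named with that gene.

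Tmem30a: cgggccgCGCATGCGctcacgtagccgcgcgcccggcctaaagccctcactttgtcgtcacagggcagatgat
Smndc1: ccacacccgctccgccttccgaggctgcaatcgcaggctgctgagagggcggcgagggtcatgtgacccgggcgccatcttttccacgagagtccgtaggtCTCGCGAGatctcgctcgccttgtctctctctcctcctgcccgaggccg
Cdv3: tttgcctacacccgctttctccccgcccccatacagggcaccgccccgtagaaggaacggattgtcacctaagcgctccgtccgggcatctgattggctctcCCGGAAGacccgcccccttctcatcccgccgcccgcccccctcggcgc
Clcn4-2: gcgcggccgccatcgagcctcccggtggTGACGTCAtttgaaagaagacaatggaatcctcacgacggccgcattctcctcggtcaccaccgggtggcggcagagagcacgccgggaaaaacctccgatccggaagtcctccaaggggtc

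Tmem30a had 29 fragments at the WT summit and 17 at the Tet2 KO summit. Smndc1 had 26 and 16, and Cdv3 39 and 30. Clcn4-2 had 17 fragments in WT and 25 in Tet2 KO, with fold enrichments of 8.49 and 9.57, and was among the few members that were higher in Tet2 KO.

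The last 2 promoters had the strongest WT peaks outside the Tet2 KO list. They are Pcca, a subunit of propionyl-CoA carboxylase (chr14:122933403-122933545, plus strand), and Ccdc104 (chr11:29147410-29147559, minus strand). Capitals mark CCAAT, which both hold.

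Pcca: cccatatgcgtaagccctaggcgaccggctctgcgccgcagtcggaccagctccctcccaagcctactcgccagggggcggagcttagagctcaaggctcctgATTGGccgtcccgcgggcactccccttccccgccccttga
Ccdc104: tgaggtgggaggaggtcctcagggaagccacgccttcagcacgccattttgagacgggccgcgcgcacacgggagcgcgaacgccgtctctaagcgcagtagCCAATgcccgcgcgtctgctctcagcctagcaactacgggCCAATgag

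The WT summits of Pcca and Ccdc104 had 40 and 36 fragments, and no Tet2 KO peak was listed at either. The Dnajc3, Paip2b, Sel1l, Pcca and Ccdc104 promoters were chosen for printing after their values were seen.

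The fold enrichment of a peak is the number of fragments over its summit divided by the background around it in that library, after 1 was added to each, as the authors' peak caller gave it. Fragment numbers at the summits were worked out from this fold and the peak's -log10 p. Over the 3919 WT members the median fold enrichment was 8.29 (quartiles 6.67 and 10.3), with 17 fragments at the summit (13 and 23) and a width of 230 bp (169 and 308.5). Over the 1013 Tet2 KO members it was 5.72 (4.91 and 6.71), with 15 fragments (13 and 18) and a width of 208 bp (153 and 276). Sequence composition was alike in both sets, with a median GC content of 63.6% in WT and 63.6% in Tet2 KO, a median CpG observed/expected ratio of 0.81 and 0.80, and 40 CpG sites per 500 bp in both. The genome-wide background was 0.649 fragments for WT and 1.38 for Tet2 KO.

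There were 3.87 WT members for each Tet2 KO member. The same ratio was 3.46 at bidirectional promoters, 5.29 at CpG-poor single promoters and 8.55 for peaks away from protein-coding promoters. Island-type single promoters therefore took a larger share of the Tet2 KO list than of the WT list. Both lists skip peak numbers, 9707 of 35482 in WT and 4403 of 8239 in Tet2 KO. The counts, ratios and shares are thus of listed peaks, and those of all called peaks are not known. A peak with island sequence but away from protein-coding starts was rarer, with 786 in WT and 144 in Tet2 KO. Seen from the genome annotation, 9380 genes had a single start with island sequence, and a WT peak lay at 44.3% of them (interval 43.3 to 45.3%) and a Tet2 KO peak at 11.7% (11.0 to 12.3%). Of the 14633 genes with a CpG-poor single start, a WT peak lay at 9.61% (9.14 to 10.1%) and a Tet2 KO peak at 1.67% (1.47 to 1.89%).

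Of the 3919 WT members, 991 overlapped a Tet2 KO peak by at least 1 bp (25.3%, interval 24.0 to 26.7%), beside 14.1% of all WT peaks. Of the 1013 Tet2 KO members, 1004 overlapped a WT peak (99.1%, interval 98.3 to 99.5%), beside 96.8% of all Tet2 KO peaks. The Tet2 KO members were thus almost all sites that were also open in WT. The partner named the same gene for 989 of the 991 WT members. The share of WT peaks with a Tet2 KO peak was 27.9% at bidirectional promoters (25.0 to 30.9%), 16.6% at CpG-poor single promoters (14.9 to 18.5%) and 11.0% away from protein-coding promoters (10.6 to 11.4%).

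The Tet2 KO list skips 4403 of 8239 peak numbers, which its caller gave in order along the genome, so a WT member outside the list may have had a called peak that is not in the list. Of the 2928 WT members without a listed Tet2 KO peak, 465 (15.9%) lay between neighbours with consecutive numbers, where no Tet2 KO peak was called. If every skipped number stood for a peak at a WT member of its interval, up to 2990 WT members (76.3%) would have had one, and at least 929 would not. The shares with a Tet2 KO peak given here are shares with a listed peak.

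Whether a WT member had a Tet2 KO peak went with the height of the WT peak. Among members with 6 to 12 fragments at the WT summit, 11 of 975 had one (1.13%, interval 0.631 to 2.01%). The share was 5.78% at 13 to 15 fragments, 13.0% at 16 to 19 and 35.2% at 20 to 24. At 25 to 60 fragments it was 605 of 780 (77.6%, interval 74.5 to 80.4%). At this height the share was 59.8% for CpG-poor single promoters (54.2 to 65.2%) and 52.1% for peaks away from promoters (50.3 to 54.0%), while bidirectional promoters had 78.0% (71.9 to 83.2%). When each class was weighted to the WT fragments of the island members, the shares were 25.0% for bidirectional promoters, 17.5% for CpG-poor single promoters and 14.3% away from promoters, beside 25.3% for the island members. The gap between island and CpG-poor promoters thus remained at like WT height, and that between island and bidirectional promoters was within the intervals.

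**Figure D1:**
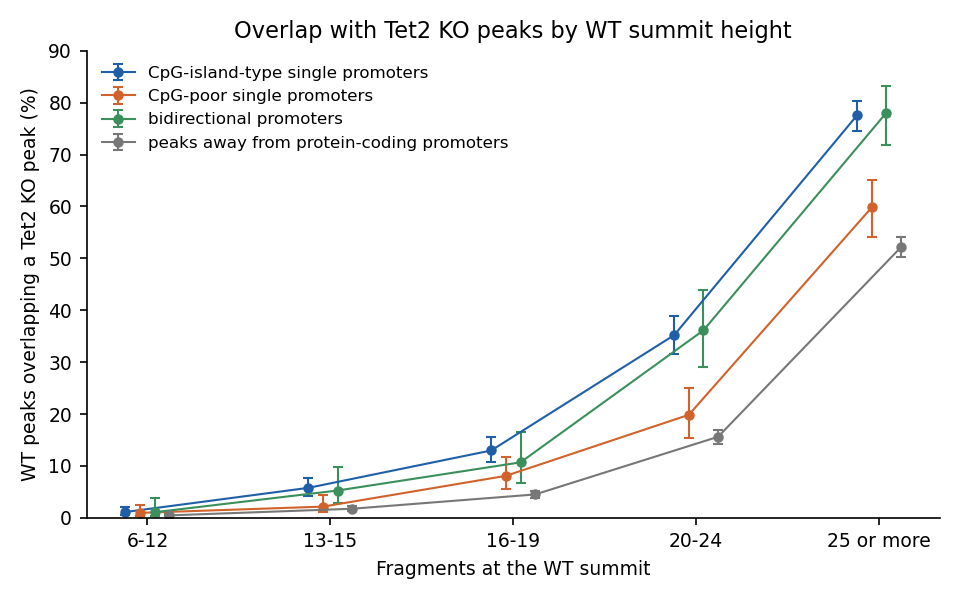
Share of WT peaks that overlap a listed Tet2 KO peak (y axis, percent) in 5 groups of fragments at the WT summit (x axis), with Wilson 95% intervals, for island-type single promoters, CpG-poor single promoters, bidirectional promoters and other peaks. In the highest group the island members reached 77.6% and the CpG-poor promoters 59.8%.

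The share varied less with GC and CpG content than with WT height. Over 5 groups of CpG observed/expected ratio, a Tet2 KO peak was listed for 26.9, 27.9, 28.0, 23.7 and 19.9% of members from the lowest ratio to the highest. Over 5 groups of GC content the share lay between 23% and 27.8%. Peaks just inside and just outside the limits of the class had close values. The share was 19.5% at a GC content of 55 to 57% and 20.2% at 53 to 55%, and it was 26.5% at a CpG ratio of 0.6 to 0.7 and 25.4% at 0.5 to 0.6.

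Peak centres lay just upstream of the transcription start, with a median position of -69 bp in WT (quartiles -133 and -19) and -98 bp in Tet2 KO (-173 and -43). Of the WT members, 24.2% lay 199 to 100 bp upstream and 47.4% within 99 bp upstream. Of the Tet2 KO members, 30.6% and 39.0% lay there. The WT members with a Tet2 KO peak had a median of -108 bp, and those without one a median of -60 bp. A Tet2 KO peak was listed for 47.2% of the WT members centred 200 to 150 bp upstream (interval 41.7 to 52.8%) and for 14.5% of those in the first 50 bp of the gene (11.6 to 17.9%).

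**Figure D2:**
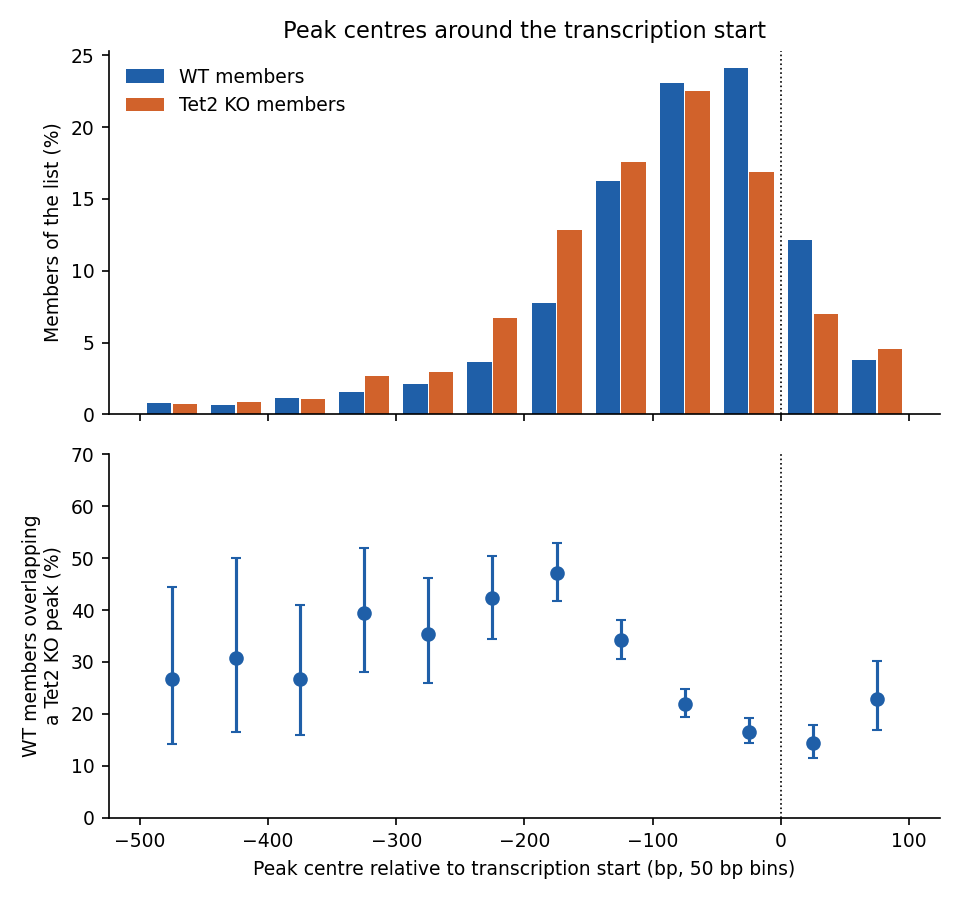
Position of peak centres relative to the transcription start (x axis, bp, 50 bp bins, shown from 500 bp upstream to 100 bp downstream), as a percentage of the members of each list (top) and as the percentage of WT members that overlap a listed Tet2 KO peak (bottom, with Wilson 95% intervals). Tet2 KO members lay further upstream, and the share fell from 47.2% at 200 to 150 bp upstream to 14.5% in the first 50 bp of the gene.

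Members further upstream also had higher WT peaks, with a median of 19 fragments in the most upstream of 5 groups and 14 in the most downstream. The 1958 members upstream of the median position had a Tet2 KO peak in 33.9% of cases and the other 1961 in 16.7%. Weighted to the WT fragments of all members, these shares were 27.1% and 22.8%. Within the groups of WT fragments the upstream members had the higher share in all 5 groups, at 80.3% and 71.1% in the highest group and at 1.38% and 0.980% in the lowest. Their peaks were also wider, with a median of 359 bp against 310 bp in the highest group, and the part of width in the overlap was not tested.

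At the 991 shared members the WT summit had a median of 27 fragments (quartiles 22 and 32) and the Tet2 KO summit 15 (13 and 18). The WT summit was the higher in 976 of them (98.5%). The median fold enrichment was 11.0 in WT and 5.81 in Tet2 KO, and the local background was 1.43 fragments at the WT peaks and 1.72 at the Tet2 KO peaks. Divided by the genome-wide background of its library, the median summit of the shared members stood at 41.6 in WT and at 10.8 in Tet2 KO. The fragment numbers of both lists rose together, with a Spearman rho of 0.64 across the 991 members, which share their libraries and are not independent. The pairs were chosen by overlap, which by itself brings the peaks close. The Tet2 KO summit lay within 50 bp of the WT summit in 610 of 991 (61.6%, interval 58.5 to 64.5%), its median shift was 2 bp, and the whole Tet2 KO peak lay inside the WT peak in 768 (77.5%). The Tet2 KO peaks were narrower, at 211 bp against 340 bp.

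**Figure D3:**
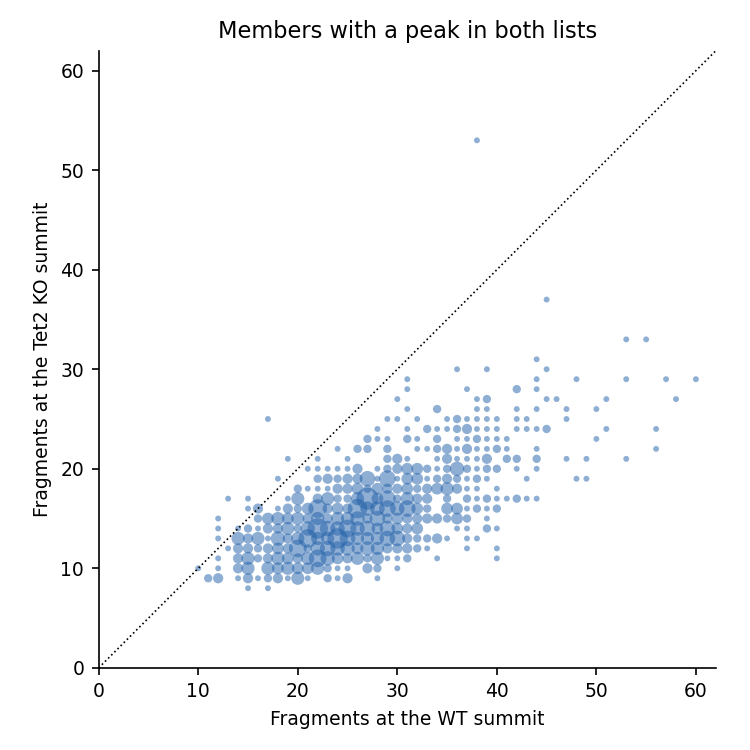
Fragments at the WT summit (x axis) and at the Tet2 KO summit (y axis) of the 991 WT members that overlap a listed Tet2 KO peak. Point area grows with the number of members at the same values and the dotted line marks equal values. Of the members, 976 lie below the line.

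The Tet2 KO summit was as high as the WT summit or higher in the other 15 members. Clcn4-2 and Sfi1 stood furthest from the rest. Sfi1, a centrosome gene, had 38 fragments in WT and 53 in Tet2 KO, but its local background was 13.4 and 26.4 fragments, and its fold enrichments of 2.71 and 1.97 were the lowest of all members of their lists. Pkd1, which encodes polycystin-1, had 19 and 21 fragments. Cul3, a cullin scaffold of ubiquitin ligases, had 16 in both.

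Counts were made of 14 short motifs in the 500 bp windows, on both strands. Before WT height was considered, the CCAAT box differed most between members with and without a Tet2 KO peak. It was found in 56.5% of WT members (interval 54.9 to 58.0%) and in 72.0% of Tet2 KO members (69.1 to 74.6%), beside 39.4% of windows of the same length around all 16961 island-type single starts. The windows of members were centred on the peak and those of starts on the start, and the part of this placement was not tested. WT members with a CCAAT box had a Tet2 KO peak in 33.1% of cases (31.2 to 35.1%), and those without one in 15.1% (13.5 to 16.9%). The share rose with the number of copies. It was 21.0% with 1 copy, 37.2% with 2 and 56.1% with 3 or more (51.6 to 60.5%). The median WT fragments rose too, from 15 with 0 copies to 16, 20 and 25. These shares by copies were not weighted to like WT fragments, so the part of WT height was not tested. The same letters in reverse order, TAACC, made no such division. The share was 25.9% for members with TAACC and 25.0% for those without.

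The CCAAT boxes lay where the peaks did. Their median position was -86 bp, and 39.9% of those within 500 bp of the start were in the 150 bp upstream of it. At the shared members a CCAAT box lay within 50 bp of the WT summit in 50.6% (47.4 to 53.7%) and within 50 bp of the Tet2 KO summit in 50.7%, beside 28.1% of the WT summits without a Tet2 KO peak (26.5 to 29.8%). Members whose CCAAT box lay in the 150 bp upstream of the start had a Tet2 KO peak in 35.9% of cases (33.5 to 38.3%), and members with a CCAAT box elsewhere in the window in 27.1% (24.0 to 30.5%). The median WT fragments of these sets were 20 and 17. Shared members also had higher WT summits, with a median of 27 fragments against 15 for the others. Neither contrast was weighted to like WT fragments.

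WT members with a CCAAT box also had higher peaks, with a median of 19 fragments against 15. At like WT fragments much of the gap was gone. Weighted to the fragments of all members, the shares were 26.9% with a CCAAT box and 22.2% without. The paired shares with and without CCAAT were 39.2% and 27.8% at 20 to 24 fragments, 79.7% and 70.7% at 25 or more, and 13.3% and 12.6% at 16 to 19. Position and CCAAT box each divided the members when both were considered. Upstream members with CCAAT had a Tet2 KO peak in 40.9% of cases (38.2 to 43.7%), upstream members without it in 22.1%, downstream members with it in 23.4% and downstream members without it in 9.94% (8.22 to 12%). In the same order, the median WT fragments of these sets were 21, 16, 17 and 14. These shares were not weighted to like WT fragments, so the part of WT height in them was not tested.

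**Figure D4:**
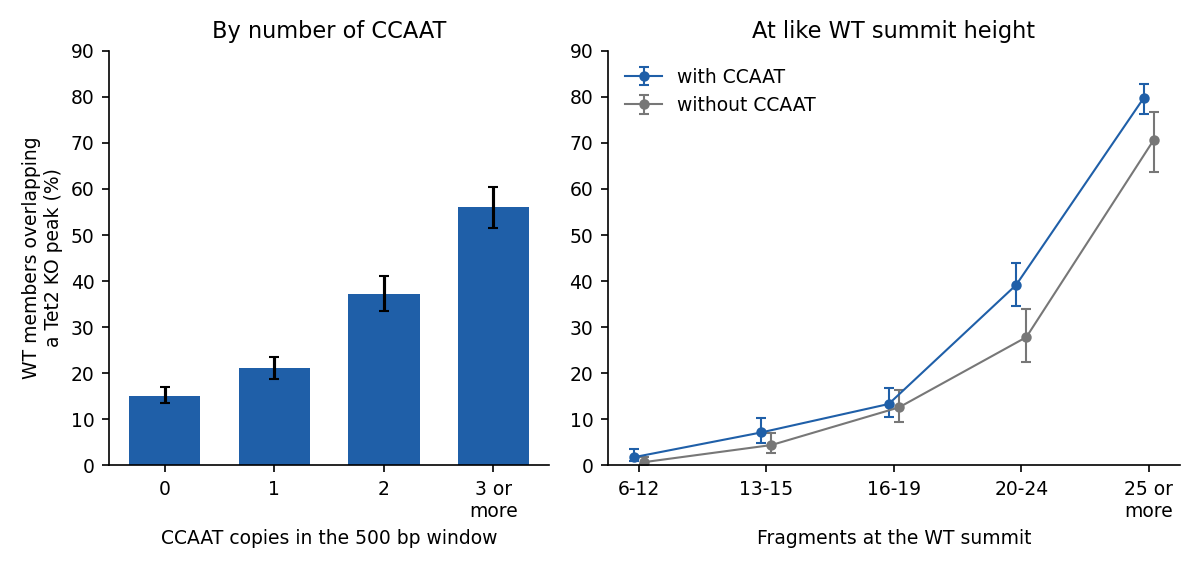
Share of WT members that overlap a listed Tet2 KO peak (y axes, percent, with Wilson 95% intervals) by the number of CCAAT copies in the 500 bp window (left) and, with and without CCAAT, in 5 groups of fragments at the WT summit (right). The share rose from 15.1% with 0 copies to 56.1% with 3 or more, while at 25 or more fragments it was 79.7% with CCAAT and 70.7% without. The shares on the left were not weighted to like WT fragments. The median WT fragments rose from 15 to 25 over the same groups.

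Bidirectional promoters showed the same division, with 34.9% (31.0 to 39.0%) and 16.7% (13.1 to 21.0%). At CpG-poor single promoters it was 18.4% (16.1 to 21.0%) with CCAAT and 14.1% (11.6 to 16.9%) without. Away from promoters the shares were 10.6% and 11.4%. The median WT fragments with and without CCAAT were 20 and 15 at bidirectional promoters and 17 and 15 at CpG-poor single promoters. Away from promoters they were 15 and 15. These shares were not weighted to like WT fragments, and no difference between the classes in the division by CCAAT was tested.

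The other motifs divided the members less before WT height was considered. The SP/KLF GC box GGGCGG was in 88.4% of WT members and 88.4% of island-type starts, and a Tet2 KO peak was listed for 26.2% of members with it (24.7 to 27.7%) and 18.5% without (15.2 to 22.4%). The ZNF143 motif ACTACAA was in 6.51%, and the share was 31.0% with it (25.6 to 36.9%) and 24.9% without (23.5 to 26.3%). The ETS motif CCGGAAG was found in 27.5% of WT members and 21.1% of island-type starts, with a share of 22.2% with it (19.8 to 24.7%) and 26.5% without (24.9 to 28.1%). The cAMP response element TGACGTCA was in 4.36%, and the share was 18.7% with it (13.6 to 25.2%) and 25.6% without (24.2 to 27.0%). The share of members with a motif was also taken at the WT fold enrichment of the members without it. It was 25.0% for the GC box, 24.9% for ZNF143, 21.7% for ETS and 20.2% for the cAMP response element. On this measure the CCAAT box had 20.8%, beside 15.1% for members without it. That gap was no wider than the 25.0% and 18.5% of the GC box.

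The motifs of NRF1, CGCATGCG, and BANP, CTCGCGAG, contain CpG sites, and the binding of both factors is known to be blocked by methylation. The NRF1 motif was in 4.52% of WT members and 4.64% of Tet2 KO members, and a Tet2 KO peak was listed for 23.7% of members with it (18.1 to 30.5%) and 25.4% without. The BANP motif was in 3.60% and 3.26%, and the share was 22.0% with it (15.9 to 29.5%) and 25.4% without. Both gaps were within the intervals.

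Motifs of factors that bind enhancers in muscle were rarer at the members than at WT peaks away from promoters. The AP-1 motif TGANTCA was in 5.92% of WT members, beside 52.1% of WT peaks away from promoters. The E box CAGCTG, the site preferred by MyoD, was in 24.1% beside 53.3%, the RUNX motif TGTGGTT in 4.47% beside 19.2%, and the TEAD motif GGAATG in 16.5% beside 34.9%. Around island-type single starts AP-1 was in 4.75% of windows, CAGCTG in 23.2%, RUNX in 3.76% and TEAD in 14.1%. The WT peaks away from promoters had a median GC content of 48.8%, and the part of base composition was not tested. The TATA box TATAAA was in 5.97% of members and 14.9% of WT peaks at CpG-poor single promoters. The YY1 motif AAGATGGC was in 8.06% and the E box CACGTG in 15.9% of WT members. A match is a description of the letters, not of binding.

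The strongest WT member was Cggbp1, which encodes a protein that binds CGG repeats (chromosome 16, peak 64851572 to 64851824, centre 124 bp upstream of the start, GC content 71.0%). It had 56 fragments and a fold enrichment of 23.3 in WT, and 22 fragments and 8.74 in Tet2 KO. Sel1l followed with fold enrichments of 20.2 and 9.16. At Fam160a2 there were 60 fragments in WT, the most of any member, and 29 in Tet2 KO. Trappc9, a subunit of the TRAPP tethering complex, had 53 and 21 fragments. At Cldn25 there were 47 and 26, and its Tet2 KO fold enrichment of 11.3 was the highest of all Tet2 KO members. Kbtbd7, a cullin adaptor, had 38 and 16 fragments. Lgmn, which encodes the lysosomal protease legumain, had 39 and 17. Pank3, a pantothenate kinase of coenzyme A synthesis, had 43 and 19. For each of these 8, the Tet2 KO peak overlapped the WT peak.

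Strong WT members without a listed Tet2 KO peak were found too. After Pcca and Ccdc104, whose fold enrichments were 17.3 and 17.1, came Ints3, a subunit of the Integrator complex, with 39 fragments. Asf1a, a histone H3-H4 chaperone, had 33 fragments and a fold enrichment of 16.4. Tusc2 had 35 fragments, Ccdc126 37, Ppp1r12b, a regulatory subunit of myosin phosphatase, 37, and Tprn 36.

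Of the Tet2 KO members, 9 overlapped no WT peak, at 10 to 18 fragments, and 5 of them lay in an interval where the WT list skips a number. The highest was at Slc25a33, a mitochondrial pyrimidine nucleotide carrier (chromosome 4, peak 149148364 to 149148501), with 18 fragments, a fold enrichment of 7.68 and the nearest listed WT peak 41306 bp away. Skil, which encodes the SMAD co-repressor SnoN, had 13 fragments and a fold enrichment of 5.30. Zfp704, Crk and Kctd15 had 11 fragments each, and Mtg1, a mitochondrial ribosome GTPase, had 10. At 1190002N15Rik, with 15 fragments, and Pgp, a phosphoglycolate phosphatase, with 13, the nearest WT peak was only 66 and 71 bp away.

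Tet2 itself was a WT member (chromosome 3, peak 133207227 to 133207351, centre 65 bp downstream of the start), with 12 fragments and a fold enrichment of 7.10 and no listed Tet2 KO peak. The promoter lies outside the deleted exon, so this is no check of the deletion. Among members with 6 to 12 fragments 1.13% had a Tet2 KO peak.

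Gene groups were counted by genes with a WT member, of which 985 of 3788 (26.0%, interval 24.6 to 27.4%) had a member that overlapped a Tet2 KO peak. The share for groups of the basic cell machinery lay between 14.3% and 28.1%, with 26.0% inside the interval of each. It was 9 of 34 for cytosolic ribosomal proteins (26.5%, 14.6 to 43.1%), 9 of 32 for nuclear genes of oxidative phosphorylation (28.1%), 7 of 30 for translation factors (23.3%), 6 of 30 for splicing and hnRNP proteins (20.0%), 3 of 18 for proteasome subunits (16.7%, 5.84 to 39.2%) and 3 of 21 for subunits of RNA polymerase II, Mediator and TFIID (14.3%, 4.98 to 34.6%). The mitochondrial ribosome had 3 of 16 and the aminoacyl-tRNA synthetases 3 of 12. Examples are Rplp0, a protein of the ribosomal stalk, with 26 fragments in WT and 16 in Tet2 KO, Eif5 with 36 and 19, Cox8a with 27 and 17, and Prpf8, the core splicing factor, with 30 in WT and no listed Tet2 KO peak.

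Shares above that of all genes were found for chromatin-modifying enzymes at 15 of 37 (40.5%, 26.3 to 56.5%), chaperones at 10 of 25 (40.0%, 23.4 to 59.3%), actin cytoskeleton and adhesion genes at 6 of 15 and Rab, Vps and Sec trafficking genes at 17 of 46 (37.0%, 24.5 to 51.4%). Apart from the chromatin-modifying enzymes these intervals include the 26.0% of all genes. Prmt5, an arginine methyltransferase, had 40 fragments in WT and 18 in Tet2 KO, and the histone demethylase gene Kdm4b had 41 and 23. Hdac6, on the X chromosome, had 22 in WT and no listed Tet2 KO peak. Hspa2 had 49 and 19, Rab40c 56 and 24, and Actn1, which encodes the actin crosslinker alpha-actinin-1, 29 and 16.

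DNA replication factors had a listed Tet2 KO peak at 7 of 20 genes and cyclins, CDKs and their inhibitors at 4 of 20. Gins2, a subunit of the replicative helicase complex, had 57 and 29 fragments, Ccna2 (cyclin A2) 35 and 19, and Ccng1 31 and 23. Kinases of the MAPK and PI3K pathways had one at 7 of 27, with Map3k3 at 50 and 26 fragments. Solute carriers had one at 12 of 54, ubiquitin E2 enzymes and cullins at 4 of 17 and Zfp zinc finger genes at 19 of 87 (21.8%, 14.5 to 31.6%). Slc25a37, the mitochondrial iron importer mitoferrin-1, had 53 and 33 fragments, Ube2s 36 and 20, and Zfp691 34 and 24.

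Of the 122 genes of developmental transcription factor families with an island-type single start, 19 had a WT member (15.6%), beside 39.5% of all 9365 gene symbols with such a start. Of 31 extracellular matrix genes 4 had one (12.9%), and 0 of these 4 overlapped a Tet2 KO peak, for which the Wilson interval reaches up to 49.0%. Col12a1, a collagen gene, had 18 fragments in WT. Counting members whose own window had island sequence although the start had not, 21 developmental factors had a WT member, and 5 of these overlapped a Tet2 KO peak. Six2 had 28 fragments in WT and 15 in Tet2 KO, Sox11 had 20 and 12, and Sox9 had 26 in WT alone. The sarcomere and muscle structure genes had 5 island-type single starts and 2 WT members, at the non-muscle myosin genes Myh9, with 34 and 22 fragments, and Myh10, with 27 and 17.

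**Figure D5:**
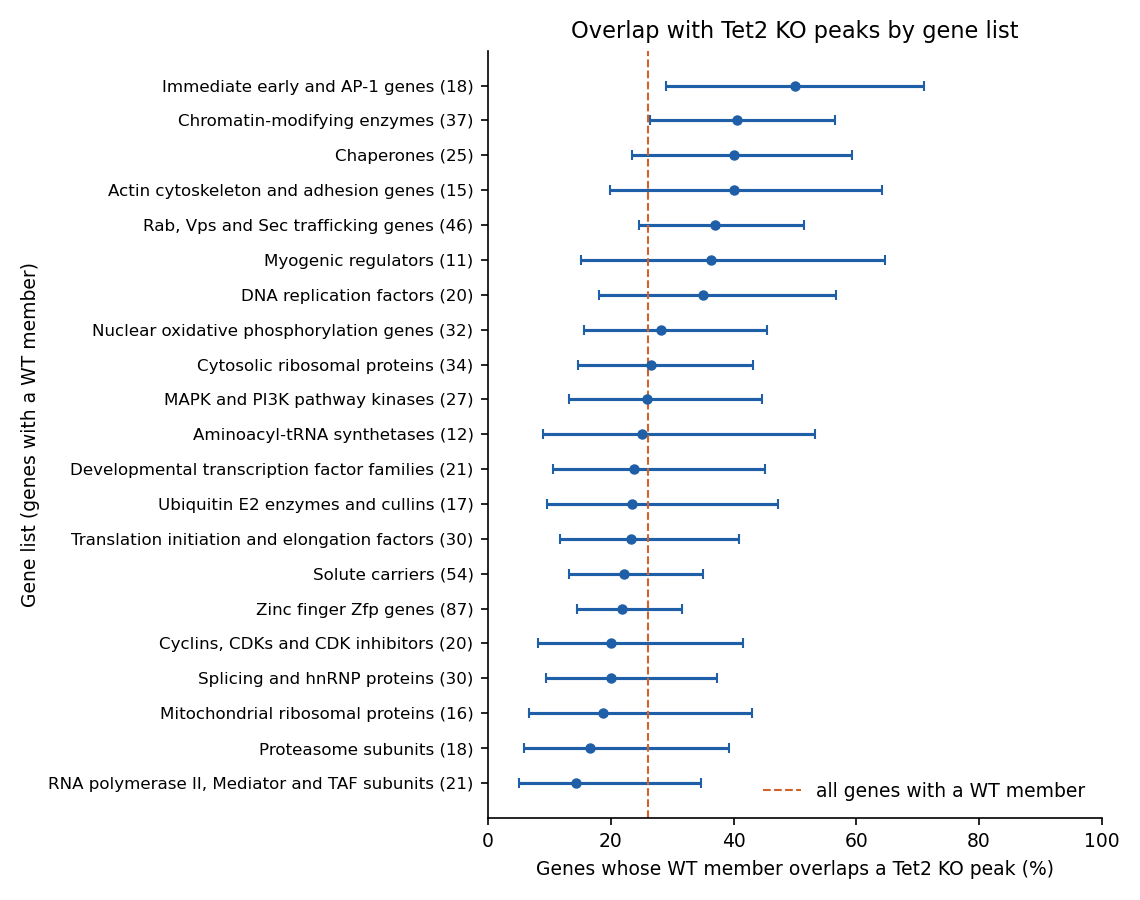
Share of genes with a WT member whose member overlaps a listed Tet2 KO peak (x axis, percent, with Wilson 95% intervals) for the gene lists with at least 10 such genes (y axis, number of genes in parentheses), apart from the endoplasmic reticulum list that was drawn up after values were seen, with a dashed line at the 26.0% of all 3788 genes. Of the lists shown, immediate early and AP-1 genes stood highest, with 9 of 18 genes, and the RNA polymerase II group lowest at 14.3%.

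Immediate early and AP-1 genes, which respond within minutes to stimuli, had a WT member at 18 of 27 genes, and 9 of the 18 overlapped a Tet2 KO peak (interval 29.0 to 71.0%). Srf, the serum response factor, had 37 fragments in WT and 22 in Tet2 KO. Klf10 had 32 and 20, Egr1 31 and 17, and Atf3 28 and 15. Jun, a core subunit of AP-1, had 23 and 17. Klf2 had 23 and 15, Klf6 22 and 10, Fosl2 22 and 18 and Btg2 18 and 15. These 9 had 18 to 37 fragments in WT. The 9 without a listed Tet2 KO peak had 13 to 20. They were Mafk with 20, Nr4a1 and Dusp1 with 15, Fos, Jund and Myc with 14, and Egr2, Ier5 and Maff with 13. The genes with and without a Tet2 KO peak overlapped in WT height only between Btg2 and Mafk.

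Myogenic regulators had a WT member at 11 of 25 genes, and 4 of these overlapped a Tet2 KO peak (36.4%, 15.2 to 64.6%). Mkl1, the SRF coactivator, had 37 fragments in WT and 24 in Tet2 KO. Id2, an inhibitor of basic helix-loop-helix factors, had 29 and 21. The homeobox gene Six4 had 22 fragments in WT and 14 in Tet2 KO. The other 7 had 12 to 19 fragments in WT alone. Eya3, a cofactor of homeobox proteins, had 19, Id4 16, Tcf3, an E protein partner of MyoD, 15, Notch1 14, Tead3 13, and Tcf4 and Mef2a 12 each.

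Members were found on the autosomes and the X chromosome. On the autosomes the share of WT members with a Tet2 KO peak ran from 21.1% on chromosome 2 to 35.4% on chromosome 12 (28.1 to 43.4%). On the X chromosome it was 9 of 80 (11.3%, interval 6.03 to 20.0%), beside 25.6% over the autosomes. The X members were lower in WT, with a median of 13 fragments against 17. Autosomal members weighted to the WT fragments of the X members had a share of 11.2%.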

How the data were processed

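Per the methods, paired reads of 150 bp were cut to 36 bp and mapped to mm9 with Bowtie2, those with a mapping quality of 30 or more were retained, Picard removed duplicates, and MACS2 called peaks per sample at a q of 0.01. The fold enrichment the authors deposited is a ratio of the summit to the local background of its own library. For each summit the authors deposited the -log10 p and -log10 q from MACS2. Another deposited column places the summit, in bp from the start of the peak. The peak score was not used, and 0 other value columns were left out. Total read numbers are not known, so the fragments at the summits and in the background are the depth the lists show.

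Protein-coding transcription starts (46006, of 22232 genes) came from GENCODE M1 and sequence from the NCBIM37 genome, which is mm9. Fragment numbers, at the summit and in the background, were worked out from fold enrichment and -log10 p with the Poisson formula of MACS2, within 0.001 in -log10 p for all peaks. CpG observed/expected was the number of CpG times the window length, divided by the product of the numbers of C and G. Motifs were counted on both strands, and matches of different motifs could overlap. Shares have Wilson 95% intervals. Weighted shares used 5 groups of WT fragments with limits at the quintiles of the members (up to 12, 13 to 15, 16 to 19, 20 to 24, and 25 or more), a choice made after seeing the data.

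The members, the gene lists and the motifs were chosen with earlier results of these data known. Named were the 8 WT members with the highest fold enrichment with and without a Tet2 KO peak, the 8 highest Tet2 KO members without a WT peak, examples from the up to 3 genes with the highest WT fold enrichment in each list, all immediate early, AP-1 and myogenic genes with a member, except where a gene is not reported here, and the 4 promoters for NRF1, BANP, ETS and CRE. Members on chromosome 18 were not considered for printing. Paip2b, Sfi1, Pkd1, Cul3, Tet2, the genes of the sort markers, the TAACC word and the list of endoplasmic reticulum genes were added after their values were seen. The functions were checked on simulated peaks. The tools were pysam 0.24.0, matplotlib 3.10.9, scipy 1.17.1, pandas 2.3.3 and numpy 2.4.6 under Python 3.11.15.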

Additional observations from a re-analysis of the deposited data

How the results depend on the processing

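No paired analysis was possible because a single list stood for each genotype, and no replicate could be left out. Of 16 alternatives, 14 left the number of WT members within 1.5 times its value, 13 that of the Tet2 KO members and 14 their ratio. With -log10 q limited to 5 or more there were 611 Tet2 KO members left, a ratio of 6.02, and shares with a peak in the other list of 16.6% for WT and 99.8% for Tet2 KO members. A -log10 q of at least 10 left 2346 WT and 149 Tet2 KO members, a ratio of 15.7, and shares of 6.44% and 100%. The Tet2 KO library had the higher background, and stricter limits took more of its peaks. With a fold enrichment of at least 5 the shares were 19.3% and 99.7%. Asking that the overlap cover 50% of both peaks gave 18.9% and 73.0%, and a summit inside the other peak gave 23.3% for WT. Limits of 60% GC and a CpG ratio of 0.75 left 2219 WT and 579 Tet2 KO members. Sequence windows of 200 and 1000 bp gave a WT share of 23.5% and 27.3%. The share of WT members with a Tet2 KO peak stayed within its interval under the other 9 alternatives, and the share of Tet2 KO members with a WT peak under 12 of the 16. What depth limits could not be measured from these lists, and its part in the 1.13% share with a Tet2 KO peak among WT members of 6 to 12 fragments was not tested.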

Other observations

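Genes of protein folding and degradation in the endoplasmic reticulum stood out among the strongest members, and a list of them was drawn up after their values had been seen, so the counts describe these genes and are no evidence about the group. Of 30 such genes with an island-type single start, 23 had a WT member, and 16 of the 23 overlapped a listed Tet2 KO peak (69.6%, Wilson 95% interval 49.1 to 84.4%), beside 26.0% of all genes. Their WT peaks were high, with a median of 31 fragments at the summit against 17 over all genes, and their median centre was at -109 bp. Sel1l, Derl1, Edem3 and Herpud2, which act in the degradation of misfolded proteins, had 51, 41, 36 and 31 fragments in WT and 24, 17, 24 and 26 in Tet2 KO. Hspa5, the main chaperone of the endoplasmic reticulum, had 43 in WT and 17 in Tet2 KO. Calr, a lectin chaperone, had 44 and 17, and Manf 42 and 21. Of the transcription factors of the stress response, Ddit3 had 30 and 21 and Atf4 25 and 13, while Xbp1 had 23 in WT and no listed Tet2 KO peak. Edem1, with 32 fragments in WT, and Ern1, the sensor kinase upstream of Xbp1, with 23, were also in the WT list alone.

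Of these 23 members, 19 held a CCAAT box in the 500 bp window (82.6%, interval 62.9 to 93.0%), beside 56.5% of all WT members, and 16 held at least 2 (69.6%), beside 28.1%. The letters of the endoplasmic reticulum stress element, CCAAT followed after 9 bases by CCACG, were found in 10 of 3919 WT members, and 7 of these were at the listed genes Calr, Canx, Derl3, Dnajc3, Hspa5, Pdia6 and Xbp1. Dnajc3 carries it in the printed sequence. The Tet2 KO list held a peak at 4 of these 7. The higher WT peaks and the CCAAT boxes moved with the overlap at these genes, and the part of each was not tested.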
